A study of Homo sapiens with 34 samples.

Results

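The genes described here are 40 genes of the integrated stress response and of amino acid supply, taken by symbol from a list of transcription factors, feedback regulators, amino acid enzymes, transporters and tRNA synthetases. All 40 were found among the 26336 genes of the count table, and the rule that selects them is a match of symbols, although the list itself was drawn up with earlier results of these data known. The study grew 4 human prostate cell lines on plastic or on a coating of amorphous calcium phosphate (ACP), a mineral surface that stands in for bone. Gene expression was read by RNA sequencing of poly(A)-selected RNA in 34 libraries.

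RWPE cells are prostate epithelium that forms no tumours. LNCaP cells were derived from a lymph node metastasis, VCaP and MDAPCa2a cells from bone metastases. RWPE was kept in keratinocyte serum-free medium with EGF and bovine pituitary extract. LNCaP was kept in RPMI with 10% FBS, VCaP in a DMEM and F12 mixture with 10% FBS, and MDAPCa2a in BRFF-HPC1 medium with 20% FBS. MDAPCa2a was grown with an FNC coating mix on plastic but not on ACP, so its surface comparison also changes that coating. Plastic control cultures were labelled as continuous culture in the line's own medium. The other cultures were labelled day 4: ACP with the line's own medium (RWPE, LNCaP, VCaP), plastic or ACP with charcoal-dextran stripped serum (LNCaP, VCaP, MDAPCa2a), and ACP with stripped serum and androgen (all 4 lines). The androgen was given at 100 mM per the labels, named DHT in the titles and testosterone in the treatment labels, and its identity cannot be settled here. Of 17 groups, 15 had 2 libraries, RWPE on ACP with androgen had 3, and VCaP on plastic in stripped serum had 1. Each line is a single cell line, and no label says that replicates were separate cultures, so p-values measure the spread between these libraries only.

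In the integrated stress response, kinases that sense amino acid shortage, unfolded protein, heme lack or viral RNA phosphorylate the initiation factor eIF2, which lowers general translation while favouring translation of the ATF4 message. ATF4 protein then activates genes that import and make amino acids and charge tRNAs, along with CHOP (the DDIT3 product) and feedback regulators such as TRIB3. Since ATF4 is controlled largely in translation, its mRNA is an incomplete readout of its activity. In prostate cells, androgen signalling and growth signalling are known to bear on the same transporters and enzymes, and charcoal stripping removes steroids and other small lipophilic molecules from serum.

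ATF4 binds, with C/EBP partners, to composite elements whose core reads TGATGNAA. To show where that core lies in the listed genes, RefSeq promoter windows (GRCh38.p14) of 300 bases were searched on both strands, from 250 bases before to 50 bases after each start. A window was at hand for 32 of the 40 genes. ASNS, the classic amino acid response gene, and CHAC1, the member with the widest changes in LNCaP, are shown over the 250 bases before their starts, followed by shorter stretches of 4 further genes. Capitals mark the core, which reads TGATGNAA on the gene's strand or TTNCATCA where it lies on the other strand.
ASNS, chr7:97872409-97872658, minus strand: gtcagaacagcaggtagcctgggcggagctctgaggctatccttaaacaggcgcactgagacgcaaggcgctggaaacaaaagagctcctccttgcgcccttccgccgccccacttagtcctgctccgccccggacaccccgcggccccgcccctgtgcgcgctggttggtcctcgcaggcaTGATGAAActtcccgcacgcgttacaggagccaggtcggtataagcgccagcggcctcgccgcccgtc
CHAC1, chr15:40953221-40953470, plus strand: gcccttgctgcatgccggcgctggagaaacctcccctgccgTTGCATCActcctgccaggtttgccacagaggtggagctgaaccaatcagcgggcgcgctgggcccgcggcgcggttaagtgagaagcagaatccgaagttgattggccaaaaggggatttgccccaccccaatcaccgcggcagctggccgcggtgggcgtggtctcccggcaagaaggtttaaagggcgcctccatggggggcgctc
AARS, chr16:70289666-70289713, minus strand: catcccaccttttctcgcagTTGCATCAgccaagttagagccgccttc
ATF3, chr1:212565196-212565243, plus strand: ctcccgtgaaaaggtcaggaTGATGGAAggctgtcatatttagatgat
CEBPG, chr19:33374051-33374098, plus strand: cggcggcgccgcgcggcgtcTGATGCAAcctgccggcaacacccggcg
SLC1A5, chr19:46784884-46784931, minus strand: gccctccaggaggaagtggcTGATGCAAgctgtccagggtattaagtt

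The core begins 68 bases before the start of ASNS, 209 before that of CHAC1, 187 before that of AARS, 191 before that of ATF3, 42 before that of CEBPG and 97 before that of SLC1A5. Among the listed genes, 12 of 32 held the core (37.5%): these 6 with CARS, GARS, MARS, SLC1A4, SLC3A2 and SLC7A1. Of all 27305 genes with a window, 4.46% held it. By window rather than by gene, the shares were 22.6% of 53 listed windows and 3.62% of 35116. The list was chosen as genes of this pathway, so a higher share was likely beforehand. A match describes these letters only and shows no binding.

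Library totals ran from 15440141 to 44779246 reads assigned to genes. Of the 40 genes, 39 had at least 10 reads in every library, and all 40 passed the filter on low counts in every comparison. Levels are given as CPM, the reads of a gene scaled to a common total by TMM library sizes, for each library in replicate order. The 8 plastic control libraries stood apart: FGG, a fibrinogen gene of liver, had between 1.41 and 2.84 CPM in all 8 and 0 reads in 25 of the 26 others. A comparison of a plastic control group with any other group of its line therefore cannot be told apart from a difference between these sets of libraries, or from continuous culture against day 4. The defining markers fitted the labelled lines. The summed basal markers KRT5, KRT14, TP63 and KRT15 were at 3398 CPM or more in every RWPE library and at 44.0 CPM or less elsewhere. Among the blood cell markers, PTPRC and CD3E were at 0.175 CPM or less in every library, but CD74 and LYZ were not absent. CD74 ranged over 4.69 to 16.9 CPM where cells were on plastic in control medium. Its highest level in any other group was 4.51 CPM. LYZ made up nearly all of the blood marker sum in VCaP with androgen, which is given below.

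**Figure D1:**
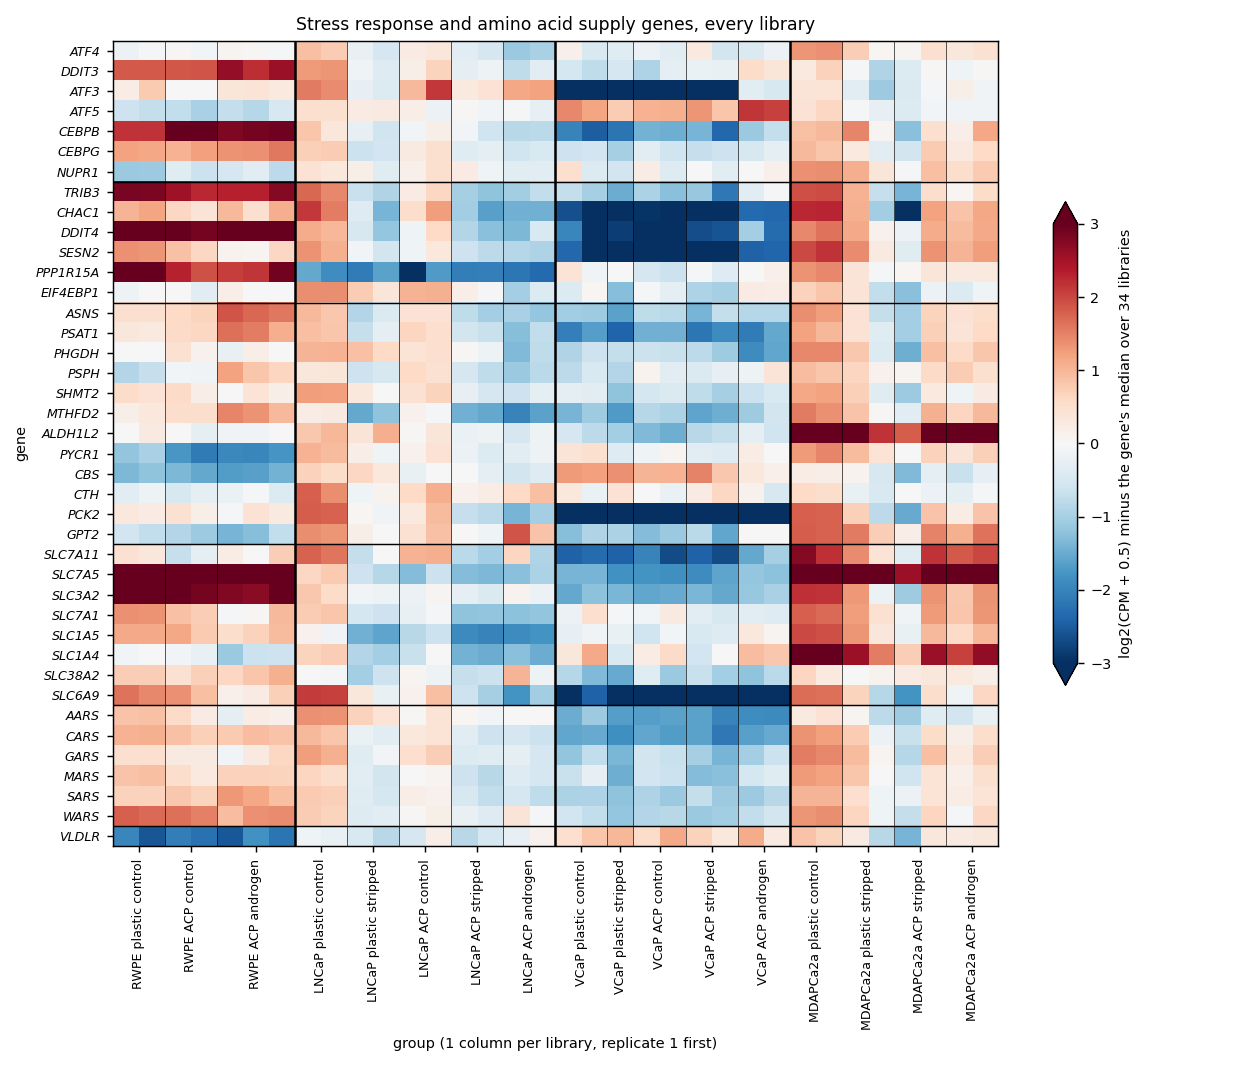
Heat map of the 40 genes (rows, ordered by role) in all 34 libraries (columns, grouped by line, surface and medium, replicate 1 first). Colour is log2(CPM + 0.5) minus the gene's median over the libraries, limited to 3 in each direction; VCaP columns are low for most rows, LNCaP columns are paler or blue in stripped serum, and the first MDAPCa2a library on ACP in stripped serum is lower than its replicate.

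The 4 lines differed in the resting level of these genes, most clearly where VCaP was compared. The ranks that follow were not counted over all genes. On plastic in control medium, MDAPCa2a had the highest mean level for 21 of the 40 genes, RWPE for 10, LNCaP for 7 and VCaP for 2. VCaP had the lowest mean for 31, RWPE for 8, LNCaP for 1 and MDAPCa2a for none. The base media of the lines differ, including in serum, so line and medium cannot be told apart. All these libraries are from the plastic control set.

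Against LNCaP on plastic, VCaP was lower for 32 and higher for 3 of the 40 genes by edgeR's quasi-likelihood test with Benjamini-Hochberg adjustment at 0.05. Over all 17323 genes tested, 52.6% were called, 25.7% lower and 27% higher. The median log2 difference was -1.74 over the listed genes and 0.03 over all genes. By role, all 6 tRNA synthetases, 11 of 12 enzymes, 5 of 6 feedback regulators, 5 of 7 transcription factors and 5 of 8 transporters were lower. CBS, which makes cystathionine from homocysteine, ATF5 and PPP1R15A, a subunit that helps dephosphorylate eIF2, were the 3 that were higher.

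The widest gap was in ATF3, a stress-induced transcription factor. It was read at 109 and 98.6 CPM in LNCaP and at 1.17 and 1.30 CPM in VCaP, a log2 difference of -6.39 (SE 0.40, adjusted p = 3.17e-12). PCK2, the mitochondrial PEP carboxykinase, stood at 642 and 621 CPM in LNCaP against 13.2 and 19.6 in VCaP, a log2 difference of -5.26 (SE 0.54). CHAC1, which degrades glutathione, was at 84.6 and 56.4 CPM against 2.65 and 1.23, a log2 difference of -5.20 (SE 0.84). None of these libraries overlapped between the lines. SLC6A9, a glycine transporter, SLC7A11, the cystine and glutamate exchanger, and SESN2, a regulator of mTORC1, followed at log2 differences of -4.94, -4.10 and -3.95.

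The distance between VCaP and MDAPCa2a was as wide, although both come from bone metastases. VCaP was lower for 36 genes and higher for 2, ATF5 and CBS, where 52.4% of all genes were called, 25.1% lower and 27.3% higher. ATF4 itself was at 513 and 338 CPM in VCaP and at 1160 and 1201 CPM in MDAPCa2a, a log2 difference of -1.47 (SE 0.24, adjusted p = 1.49e-05). The median over the list was -2.16. Against RWPE, VCaP was lower for 27 genes and higher for 5, with 62.4% of all genes called, 30.3% lower and 32.1% higher. The share of the 40 called was 80% there, 87.5% against LNCaP and 95% against MDAPCa2a. Between the other lines the share was nearer that of all genes. It was 60% beside 57.4% for LNCaP against RWPE and 35% beside 40.2% for MDAPCa2a against LNCaP. For MDAPCa2a against RWPE it was 62.5% beside 56.7%, with 19 higher and 6 lower, where 28.3% and 28.4% of all genes were.

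SLC7A5, the light chain of the LAT1 transporter for large neutral amino acids, spanned the widest range of levels. On plastic it was read at 8367 and 7366 CPM in RWPE, 2694 and 2485 in MDAPCa2a, 44.9 and 50.7 in LNCaP, and 10.8 and 10.7 in VCaP. No line overlapped its neighbour in that order. The log2 difference from RWPE was -1.60 in MDAPCa2a (SE 0.53, adjusted p = 0.0125), -7.36 in LNCaP (SE 0.69, adjusted p = 1.75e-09) and -9.52 in VCaP (SE 0.75, adjusted p = 8.55e-11). The MDAPCa2a call was lost without either MDAPCa2a plastic control library, at log2 differences of -1.66 and -1.55. KRT5 was at 2348 to 10153 CPM in RWPE and at 0 in 2 LNCaP libraries on ACP, control replicate 1 and androgen replicate 1. In those 2 libraries SLC7A5 was at 11.5 and 11.9 CPM. They are not plastic libraries, and the source of low SLC7A5 reads was not tested. SLC3A2, its heavy chain partner, was at 2367 and 2190 CPM in RWPE, 1078 and 1065 in MDAPCa2a, 416 and 347 in LNCaP, and 81.1 and 100.1 in VCaP.

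ALDH1L2, a mitochondrial folate enzyme, was read mainly in MDAPCa2a, at 112 and 84.7 CPM on plastic in control medium. The other lines held 2.47 CPM or less in that condition. MDAPCa2a minus LNCaP was 5.42 on the log2 scale (SE 0.79, adjusted p = 4.48e-06), and VCaP minus MDAPCa2a was -7.75 (SE 0.92, adjusted p = 1.46e-07). MDAPCa2a against LNCaP on plastic had 10 genes higher and 4 lower, where 40.2% of all genes were called, 19.3% higher and 21% lower. SLC1A4, a carrier of alanine, serine and cysteine, was among the higher ones at 236 and 210 CPM against 33.2 and 34.5 (log2 2.72, SE 0.41, adjusted p = 7.57e-06). That count of 14 fell to 9 without LNCaP plastic control replicate 2.

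Per kilobase of exon, DDIT4, an inhibitor of mTORC1 induced by stress, was the most abundant listed transcript on plastic in 3 lines. Its level was 1912 ± 60.0 CPM per kb (SD, n = 2) in RWPE, 456 ± 23.6 in LNCaP and 640 ± 56.7 in MDAPCa2a. In VCaP the most abundant was CBS, at 184 ± 3.75 CPM per kb, ahead of ATF4 at 169 ± 49.0, and these 2 did not differ beyond their spread. ALDH1L2 was the least abundant in RWPE, LNCaP and VCaP.

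With androgen on ACP the order of the lines changed. RWPE then had the highest mean for 20 genes, MDAPCa2a for 13, VCaP for 4 and LNCaP for 3. LNCaP had the lowest mean for 13 genes, up from 1 on plastic, while VCaP had the lowest for 20. Against RWPE, LNCaP was higher for 15 genes and lower for 9 on plastic, where 57.4% of all genes were called, 29.5% higher and 27.9% lower. On ACP with androgen it was higher for 7 and lower for 26, where 66.9% were called, 32.2% higher and 34.8% lower. ATF4, EIF4EBP1, PCK2, PHGDH, PSPH and SHMT2 were called higher in LNCaP on plastic and lower on ACP with androgen. For ATF4 the plastic values were 857 and 787 CPM in LNCaP against 407 and 454 in RWPE. On ACP with androgen they were 212 and 234 CPM against 488, 469 and 449. The change of the line difference between conditions was not itself tested.

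VCaP against LNCaP went from 3 higher and 32 lower on plastic to 11 higher and 13 lower on ACP with androgen, where 56% of all genes were called, 28.5% higher and 27.5% lower. The last count of 24 fell to 15 without LNCaP ACP androgen replicate 1. MDAPCa2a against LNCaP went the other way, from 10 higher and 4 lower to 28 higher and 2 lower, where 45.3% of all genes were called, 21.3% higher and 24% lower. The 10 that were higher on plastic were all among the 28. Surface, serum, androgen and library set change together between those conditions.

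**Figure D2:**
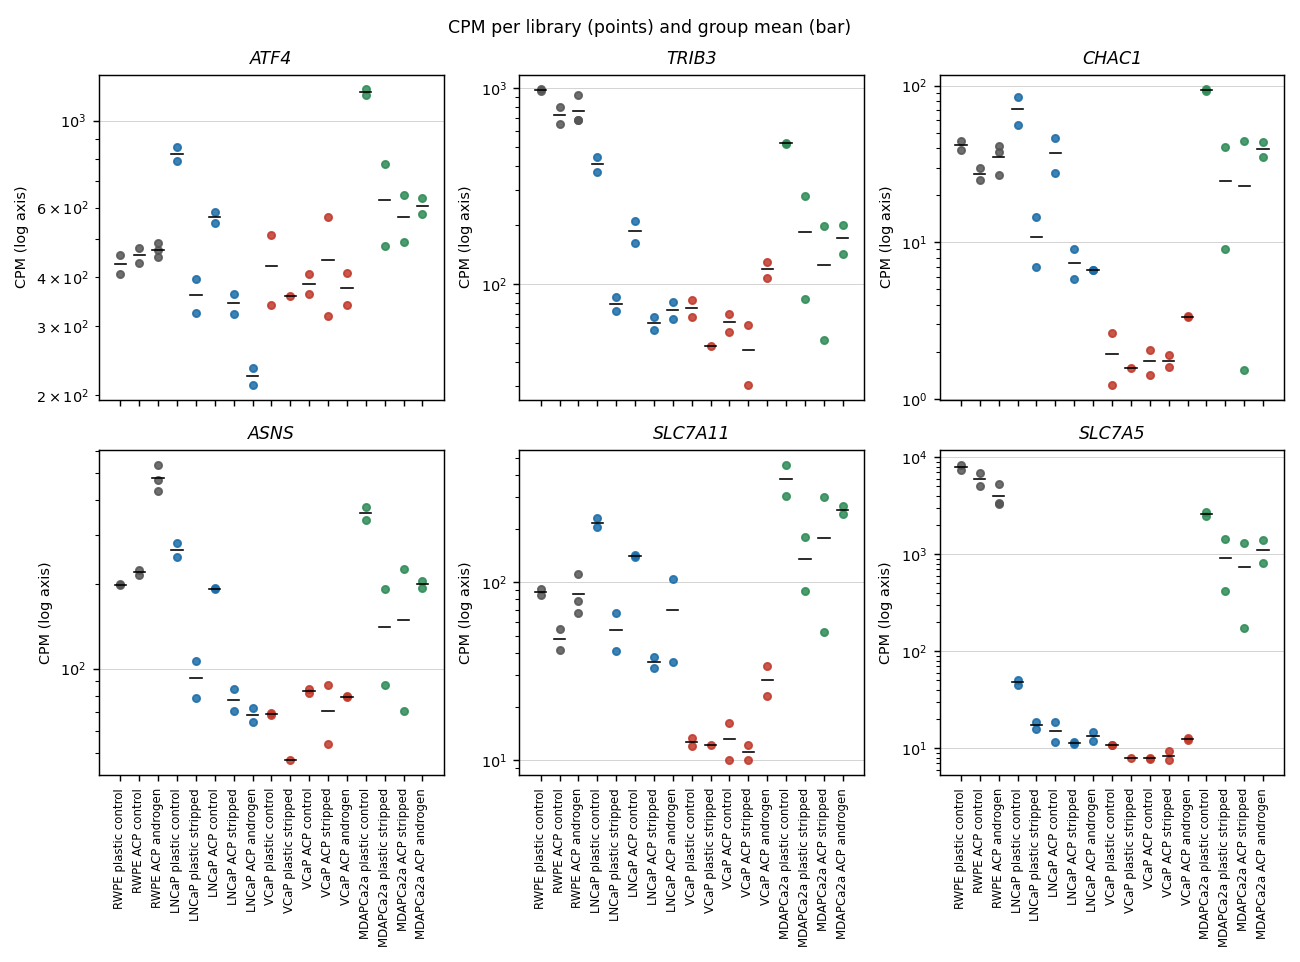
CPM on a log axis for ATF4, TRIB3, CHAC1, ASNS, SLC7A11 and SLC7A5 in each of 17 groups; each point is a library, each dash a group mean, and colour marks the line. In LNCaP the stripped-serum points lie below the control points for these genes on both surfaces, apart from SLC7A5 on ACP, and the MDAPCa2a points in stripped serum are far apart.

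In LNCaP, serum stripping lowered most of these genes. On ACP, 24 of the 40 fell and none rose by edgeR's test, where 5.37% of 14656 genes were called, 2.09% lower and 3.28% higher. The fitted difference was below 0 for 39 genes, with PPP1R15A the exception. The libraries of the 2 groups did not overlap for 34, a count that has no share over all genes beside it. The median log2 difference was -0.79 over the list and -0.01 over all genes. No plastic control library enters this comparison, and both groups are labelled day 4. The count was 11 without LNCaP ACP stripped replicate 1 and 7 without replicate 2, while leaving out a control library gave 25 or 20.

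Among the transcription factors, ATF4 fell from 549 and 587 CPM in control medium to 362 and 323 in stripped serum (log2 -0.75, SE 0.13, adjusted p = 0.00845). ATF3 and CEBPG, a C/EBP partner of ATF4, also fell. DDIT3, which encodes the proapoptotic factor CHOP, was at 32.5 and 46.3 CPM against 24.1 and 26.1 and did not pass the threshold (adjusted p = 0.069). The ATF4 call was lost without either stripped library, at log2 differences between -0.82 and -0.69 over all 4 omissions.

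Of the feedback and growth control genes, 5 of 6 fell. CHAC1 went from 27.8 and 46.0 CPM to 9.02 and 5.81 (log2 -2.33, SE 0.34, adjusted p = 0.00358). That call was lost without stripped replicate 2. TRIB3, a pseudokinase that restrains ATF4, went from 162 and 210 CPM to 67.9 and 58.4 (log2 -1.57, SE 0.17, adjusted p = 0.000634). TRIB3 kept its call whichever library was left out. DDIT4, SESN2 and EIF4EBP1, which encodes a translation repressor under mTORC1, were the others.

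Of the 12 enzymes, 7 fell. MTHFD2, of mitochondrial one-carbon metabolism, went from 233 and 209 CPM to 78.0 and 73.6 (log2 -1.57, SE 0.18, adjusted p = 0.000858). ASNS, which makes asparagine, went from 193 and 194 CPM to 84.4 and 70.7 (log2 -1.34, SE 0.18, adjusted p = 0.00213). PCK2 went from 223 and 356 CPM to 112 and 105 (log2 -1.43, SE 0.20). These 3 kept their calls in every omission. In the serine pathway, PSAT1 fell from 655 and 595 CPM to 289 and 266 (log2 -1.19, SE 0.20, adjusted p = 0.00705), and its call was lost without either stripped library. PSPH and SHMT2 fell as well. PHGDH, the first enzyme of that pathway, was at 439 and 469 CPM against 342 and 300 and did not pass (adjusted p = 0.106). CBS, at 182 and 216 CPM against 212 and 176, overlapped.

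Transporters fell in 5 of 8 cases. SLC7A11 went from 139 and 143 CPM to 38.1 and 32.9 (log2 -2.01, SE 0.40, adjusted p = 0.0163), with the call lost without either stripped library. SLC6A9 went from 32.4 and 56.2 CPM to 19.2 and 14.6 (log2 -1.40, SE 0.29, adjusted p = 0.0185). Its call was lost without either stripped library or without control replicate 2. SLC7A1, SLC1A5 and SLC1A4 were the other 3. SLC7A5, at 11.5 and 18.5 CPM against 11.6 and 11.1, did not pass (adjusted p = 0.286). Of the tRNA synthetases, CARS, GARS, MARS and SARS fell by 0.78 to 1.02 on the log2 scale, and AARS and WARS did not pass.

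On plastic, 32 of the 40 genes fell and none rose, where 9.45% of 14656 genes were called, 4.84% lower and 4.61% higher. All 40 fitted differences were below 0, with a median of -1.19. The largest falls were in CHAC1, from 84.6 and 56.4 CPM to 14.5 and 6.99 (log2 -2.66, SE 0.34, adjusted p = 0.00108), and in TRIB3, from 447 and 373 CPM to 86.1 and 72.6 (log2 -2.32, SE 0.17, adjusted p = 4.18e-05). SLC6A9, SLC7A11, DDIT4 and ATF3 followed, at log2 differences of -1.95, -1.94, -1.80 and -1.78. ATF4 went from 857 and 787 CPM to 394 and 324 (log2 -1.15, SE 0.13, adjusted p = 0.000561). The plastic control libraries are the set that carries FGG reads, and the 4 liver markers fell here too, from 10.4 to 15.4 CPM in sum to 0.765 to 0.821. Their part in the result was not tested.

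The comparisons on plastic and on ACP share no library, though deviations of same-numbered stripped libraries correlated at 0.47 between the surfaces. All 24 genes called on ACP were also called on plastic, which is 100% of the ACP list and 75% of the plastic list. That overlap was not counted over all genes, so it cannot be called particular to these genes. Both comparisons come from the same fit of the LNCaP libraries. AARS, CEBPB, CTH, DDIT3, GPT2, SLC3A2, SLC7A5 and WARS were called on plastic only, and the difference between the 2 effects was not tested. ALDH1L2, ATF5, CBS, NUPR1, PHGDH, PPP1R15A, SLC38A2 and VLDLR were called in neither. Of the 12 genes whose window holds the TGATGNAA core, 10 fell on ACP and 12 on plastic. Of the 20 whose window does not, 9 and 14 did. The list was drawn up with earlier results of these data known, and 8 listed genes had no window. Falls were not counted over all genes that hold the core, so a link between core and fall was not tested.

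**Figure D3:**
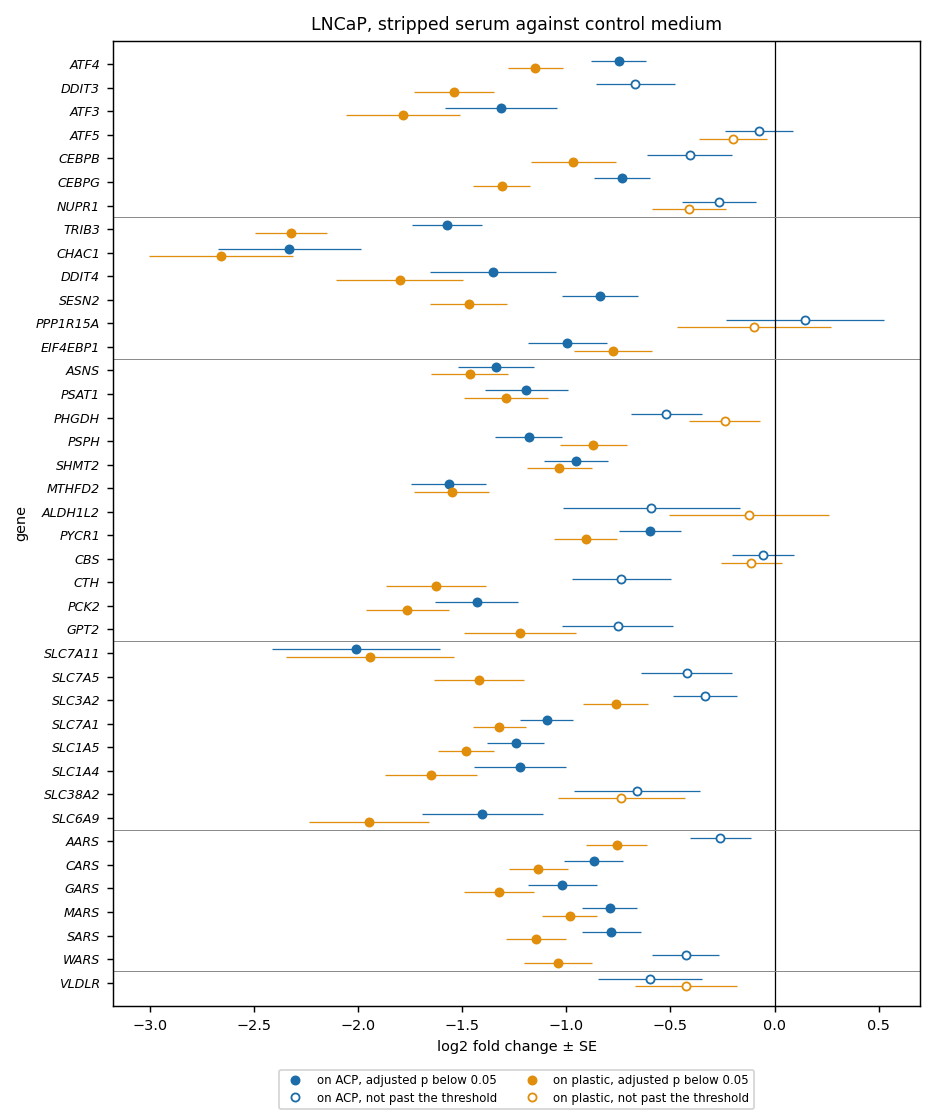
Log2 difference (x axis, point ± SE) of stripped serum minus control medium in LNCaP for each of the 40 genes (y axis, by role), on ACP in blue and on plastic in orange; filled points have an adjusted p below 0.05. Of the blue points 24 are filled and of the orange points 32, all left of 0, and CHAC1 lies farthest left on both surfaces.

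Other genes of the same pathways, listed apart from the 40, were counted in LNCaP on ACP in the same way, beside the 5.37% of all genes called there. Of 14 stress kinases and eIF2 components, EIF2S2 and PPP1R15B fell and 12 did not pass. Of 14 other cytosolic tRNA synthetases, EPRS, IARS and YARS fell. None of 17 mitochondrial synthetases passed. Of 19 other amino acid transporters tested, SLC43A1 and SLC38A1 fell and SLC38A9, a lysosomal arginine sensor, rose. SLC43A1, a carrier of branched-chain amino acids, went from 49.1 and 71.5 CPM to 14.0 and 11.4 (log2 -2.26, SE 0.27, adjusted p = 0.00107). MTHFD1L was the only one of 15 other serine, folate and proline enzymes that fell. None of 12 nitrogen enzymes or 9 methionine and glutathione enzymes passed. Of the luminal markers, the androgen-responsive genes KLK3, KLK2 and TMPRSS2 also fell, with TMPRSS2 at 493 and 963 CPM against 196 and 185. KRT8 and KRT18, the other luminal markers listed, were not among those that fell.

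In VCaP, stripping on ACP changed none of the 40 genes by edgeR's test. An unadjusted p below 0.05 was found for 7, beside 2585 of the 15614 genes tested. DESeq2 called 1 of the 40, and edgeR called 0.82% of all genes, 0.134% higher and 0.685% lower. EIF4EBP1 stood at 89.1 and 74.1 CPM in control medium and 47.6 and 45.5 in stripped serum (log2 -0.79, SE 0.20, adjusted p = 0.0955). CHAC1 was near its floor, at 2.07 and 1.43 CPM against 1.90 and 1.60. ATF4 spread from 317 to 567 CPM between the stripped replicates, which overlapped the control values of 407 and 362. The VCaP minus LNCaP difference in the stripping effect was above 0 for all 40 genes, with a median of 0.58 against 0.03 over all genes. No gene passed in that test (11 at an unadjusted p below 0.05 beside 2289 of 17323 genes, 3 by DESeq2). Of all genes, 0.595% were called. For SLC7A11 the difference was 1.74 (SE 0.73, adjusted p = 0.293) and for ASNS 1.08 (SE 0.48, adjusted p = 0.316).

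On plastic VCaP had a single stripped library, assumed in the fit to vary like the other groups. None of the 40 genes passed by edgeR, where 0.89% of all genes were called. Of the fitted differences 31 were below 0, with a median of -0.31 against 0.01 over all genes.

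In MDAPCa2a, stripping on plastic left 39 of the 40 fitted differences below 0, with a median of -0.90 against -0.01 over all genes. The libraries did not overlap for 39 genes, a count again given without the share over all genes. Only PPP1R15A was called, at 81.0 and 86.5 CPM in control medium and 41.6 and 30.6 in stripped serum (log2 -1.18, SE 0.18, adjusted p = 0.0235), where 1.58% of all genes were called, 0.697% lower and 0.881% higher. That call was lost in each of the 4 omissions of a library. At an unadjusted p below 0.05 there were 20 of the 40, beside 2208 of 13626 genes, and DESeq2 called 6 of the 40. With no count filter edgeR called 24 of the 40, all lower, beside 855 of 19373 genes. The median of -0.90 was -1.41 without plastic stripped replicate 1 and -0.60 without replicate 2. ATF4 was at 1160 and 1201 CPM against 774 and 480 (adjusted p = 0.103), and CHAC1 at 92.7 and 94.8 against 40.5 and 9.04 (adjusted p = 0.409). DDIT3 was at 35.3 and 46.6 CPM against 28.2 and 15.2 (adjusted p = 0.164). ASNS was at 379 and 341 CPM against 193 and 87.7 (adjusted p = 0.214), and SLC7A11 was at 458 and 306 against 180 and 89.1 (adjusted p = 0.293). The stripped replicates lay far apart in these genes.

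That spread was itself a feature of the listed genes. On plastic in stripped serum, MDAPCa2a replicate 2 was below replicate 1 for 39 of the 40 genes, 17 of them by more than 2-fold, while 1.06% of 16822 genes were that much lower. On ACP in stripped serum it was replicate 1 that was low, below replicate 2 for 39 genes and by more than 2-fold for 28, while 3.33% of all genes were that much lower. The median log2 difference between these ACP replicates was -1.34 over the list and -0.01 over all genes, at an offset of 0.5 CPM. No other pair of replicates in the study differed by more than 2-fold for more than 3 of the 40 genes. With androgen on ACP, MDAPCa2a replicate 1 was also below replicate 2 for 37 of the 40 genes, at a median log2 difference of -0.31. Same-numbered deviations over all genes correlated at 0.61 between these 2 ACP groups, and a shared origin was not tested. No label gives replicate numbers an order, and the values compare 2 libraries, not conditions.

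CHAC1 was the gene with the largest drop of all 16822 on ACP, at 1.53 CPM against 44.5. ALDH1L2 came second there, at 4.71 against 76.8 CPM, and first on plastic, at 6.18 against 31.5. SLC7A5 was at 175 and 1307 CPM on ACP and at 1426 and 420 on plastic. TRIB3 was at 51.6 and 197 CPM on ACP and at 283 and 84.1 on plastic. In serine synthesis, PHGDH was at 120 and 620 CPM on ACP and PSAT1 at 208 and 693. ATF4 differed less, at 490 and 647 CPM on ACP and 774 and 480 on plastic.

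The other lists showed less of this spread. As low library minus the other, the median log2 difference of other cytosolic synthetases was -0.31 on ACP and -0.19 on plastic. That of the basal markers was -0.93 and -0.48, and that of the luminal markers 0.41 and 0.05. Of 14 stress kinases and eIF2 components and of 17 mitochondrial synthetases, none was more than 2-fold lower in the low library of either pair. On plastic ASS1 and KRT5 were. On ACP they were TARS of 14 other cytosolic synthetases, and MTHFD1L and TYMS of 15 serine, folate and proline enzymes. ASS1 and BCAT1 of 12 nitrogen enzymes and KRT5 and KRT15 of 4 basal markers were so too, beside 3.33% of all genes. In the other direction on ACP were 1 transporter and 1 nitrogen enzyme. KRT5 was at 0 and 6.74 CPM on ACP. The summed basal markers of these libraries lay between 32.8 and 36.8 CPM. KLK3, a luminal marker, was at 11697 CPM in the low library and 7006 in the other. Their part in the spread was not tested.

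**Figure D4:**
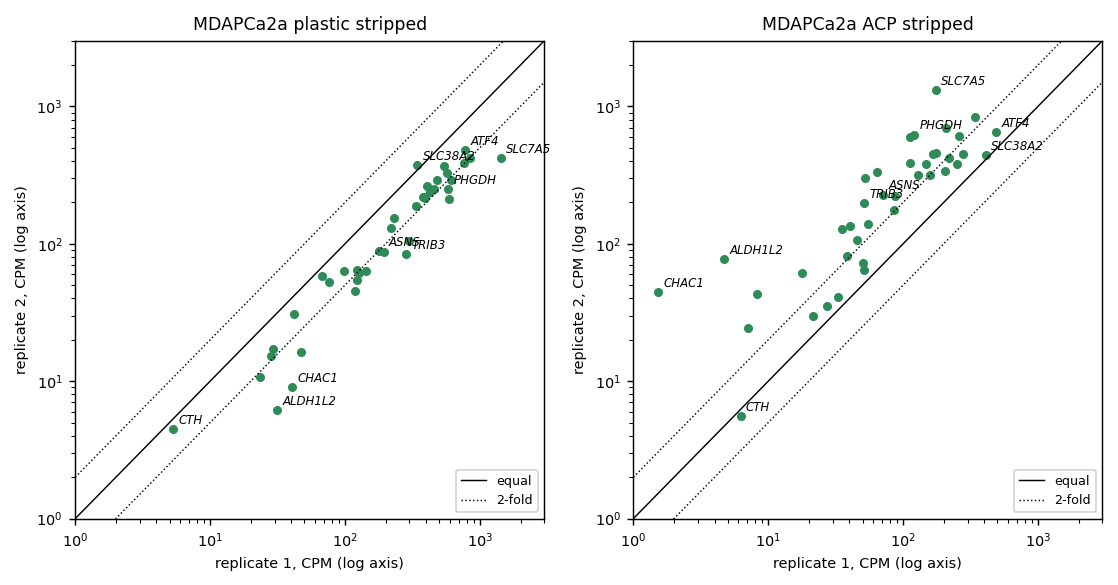
CPM of the 40 genes in replicate 1 (x) against replicate 2 (y) of MDAPCa2a in stripped serum, on plastic (left) and on ACP (right), both axes on a log scale; the solid line marks equal levels and the dotted lines a 2-fold difference. On plastic 17 genes lie more than 2-fold below equality, on ACP 28 lie more than 2-fold above it, and CHAC1 and ALDH1L2 are among the farthest.

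With androgen added to stripped serum on ACP, some LNCaP genes stayed below their control values and others reached them. CHAC1 stood at 6.70 and 6.66 CPM with androgen, against 9.02 and 5.81 in stripped serum and 27.8 and 46.0 in control medium. ASNS was at 72.3 and 64.3 CPM, against 84.4 and 70.7 and then 193 and 194. ATF3, called lower with stripping, stood at 82.7 and 85.7 CPM with androgen, within the control values of 72.3 and 160. The stripped libraries serve both comparisons. Of the 40 genes, 2 rose and 3 fell with androgen, where 7.73% of 14656 genes were called, 3.77% higher and 3.96% lower.

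ATF4 itself fell further in LNCaP, to 212 and 234 CPM with androgen (log2 -0.63, SE 0.13, adjusted p = 0.0172). PHGDH fell from 342 and 300 CPM to 133 and 196 (log2 -0.98, SE 0.17, adjusted p = 0.00745), and EIF4EBP1 from 105 and 88.5 CPM to 44.9 and 68.8 (log2 -0.79, SE 0.19, adjusted p = 0.0298). GPT2, which makes glutamate and pyruvate from alanine, rose from 113 and 103 CPM to 415 and 204 (log2 1.51, SE 0.27, adjusted p = 0.00852). SLC38A2, a sodium-coupled neutral amino acid transporter, rose from 214 and 221 CPM to 701 and 312 (log2 1.21, SE 0.31, adjusted p = 0.0352). Both rises were larger in androgen replicate 1. Without it the log2 difference of SLC38A2 was 0.49 and not called, and that of GPT2 was 0.89. The count of 5 fell to 0 without stripped replicate 1, 1 without stripped replicate 2 and 2 without androgen replicate 1.

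ATF4 and EIF4EBP1 lost their calls in 3 of the 4 omissions, as did SLC38A2. SLC7A11 was split between the androgen libraries, at 104 and 35.6 CPM (adjusted p = 0.159). KLK3, KLK2 and TMPRSS2 rose in the same comparison, with TMPRSS2 at 918 and 934 CPM against 196 and 185. The luminal markers KRT8 and KRT18 did not pass there, at log2 differences of 0.71 and 0.55. Among the other pathway genes, GLUD1, glutamate dehydrogenase, and SLC43A1 rose, by 1.45 (SE 0.20) and 1.46 (SE 0.27) on the log2 scale. BCAT1, a branched-chain aminotransferase, and TYMS fell, by 4.10 (SE 0.85) and 1.56 (SE 0.32).

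In VCaP the same addition raised 9 of the 40 genes and lowered 2, where 17.5% of 15614 genes were called, 8.67% higher and 8.8% lower. The median log2 difference was 0.42 over the list and -0.03 over all genes. ATF3 rose from 2.54 and 1.23 CPM to 28.6 and 26.3 (log2 3.87, SE 0.47, adjusted p = 0.00151). EIF4EBP1 rose from 47.6 and 45.5 CPM to 109 and 107 (log2 1.22, SE 0.21, adjusted p = 0.00539). These 2 calls held whichever library was left out.

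TRIB3 rose from 61.7 and 30.5 CPM to 108 and 130 (log2 1.37, SE 0.31, adjusted p = 0.0162), a call lost without androgen replicate 2. SLC7A11 went from 12.1 and 9.96 CPM to 22.8 and 33.6 (log2 1.35, SE 0.31, adjusted p = 0.0182). SLC1A4 and GPT2 rose by 1.17 and 1.14 on the log2 scale, ATF5 by 1.00, MARS by 0.84 and MTHFD2 by 0.74. PHGDH fell from 191 and 157 CPM to 89.8 and 112 (log2 -0.79, SE 0.20, adjusted p = 0.0265), and CBS from 603 and 376 to 267 and 236 (log2 -0.96, SE 0.24, adjusted p = 0.0236). Each of these except TRIB3 lost its call in 2 or 3 of the 4 omissions. The count of 11 fell to 6, 7, 6 and 2 without stripped replicates 1 and 2 and androgen replicates 1 and 2.

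ATF4 was at 567 and 317 CPM in stripped serum and 340 and 410 with androgen in VCaP, which overlap (adjusted p = 0.613). ASNS, at 53.7 and 87.6 against 79.5 and 79.3 CPM, overlapped too. PSAT1 overlapped as well, at 94.0 and 113 against 97.5 and 144 CPM (adjusted p = 0.524). SLC7A5, at 7.51 and 9.34 against 12.7 and 12.0, did not pass (adjusted p = 0.159), and DDIT3, at 25.1 and 24.7 against 42.6 and 37.5, did not pass either (adjusted p = 0.0861). Markers of other cell types moved with androgen in VCaP. The 4 blood markers summed to 7.17 to 13.6 CPM in stripped serum and 82.8 to 158 with androgen, nearly all of it LYZ, while CD3E was at 0 in all 4 libraries. The 5 fibroblast markers went from 40.4 to 161 CPM to 7.36 to 8.41, chiefly LUM, and COL3A1 was at 0.451 CPM or less in all 4. The 4 liver markers went from 268 to 322 CPM to 15.7 to 65.4. Their part in the result was not tested.

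The androgen effect differed between VCaP and LNCaP for 5 of the 40 genes, where 10.9% of 17323 genes differed, 5.39% higher and 5.51% lower in VCaP. The VCaP minus LNCaP difference was 3.04 for ATF3 (SE 0.48, adjusted p = 0.000368), 1.98 for EIF4EBP1 (SE 0.42, adjusted p = 0.00358) and 1.11 for ATF5 (SE 0.25, adjusted p = 0.00617). EIF4EBP1 rose in VCaP and fell in LNCaP. The difference was -1.39 for SLC38A2 (SE 0.39, adjusted p = 0.0223) and -1.25 for CTH, cystathionine gamma-lyase (SE 0.37, adjusted p = 0.0323). SLC38A2 and CTH each lost the call in 5 of the 8 omissions of a library, while the first 3 kept theirs in all 8. The count of 5 was 3 without either LNCaP stripped library. In LNCaP itself, ATF3 was at 44.9 and 49.2 CPM in stripped serum and 82.7 and 85.7 with androgen, without overlap and without passing (adjusted p = 0.0844).

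**Figure D5:**
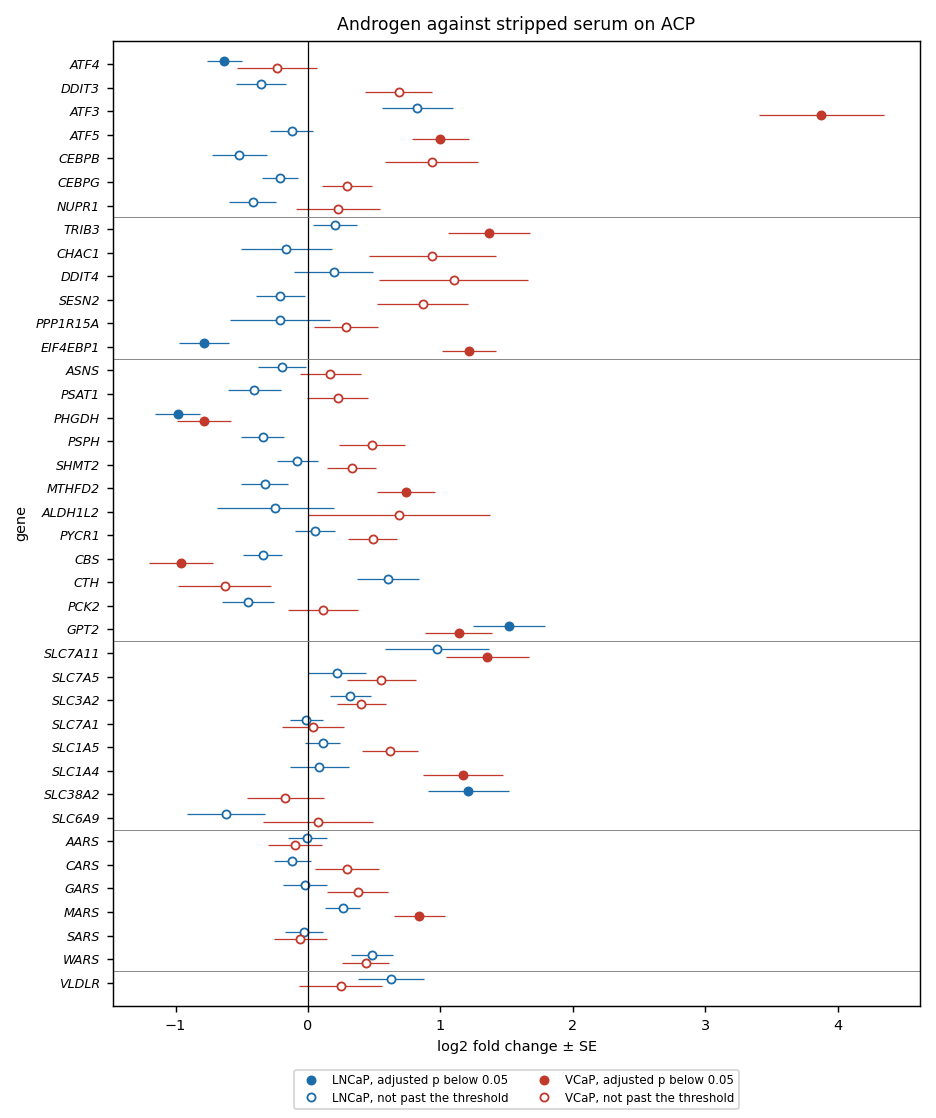
Log2 difference (x axis, point ± SE) of androgen minus stripped serum on ACP for each of the 40 genes (y axis, by role) in LNCaP (blue) and VCaP (red); filled points have an adjusted p below 0.05. LNCaP has 2 filled points right of 0 and 3 left of it, VCaP has 9 and 2, and ATF3 in VCaP lies farthest right at 3.87.

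In MDAPCa2a no gene of the list passed with androgen by edgeR, none had an unadjusted p below 0.05, DESeq2 called none, and 0% of all genes were called. The fitted difference was above 0 for 38 of the 40, with a median of 0.29. That median was -0.18 when replicate 1 of the stripped pair was left out and 1.09 when replicate 2 was, so its sign rests on 1 library. CHAC1 was at 35.0 and 43.5 CPM between stripped values of 1.53 and 44.5. SLC7A5 was at 818 and 1404 CPM, against 175 and 1307. Of the stress genes, DDIT3 was at 26.5 and 29.6 CPM with androgen, against 21.6 and 29.8. ASNS and SLC7A11 lay between their stripped values, ASNS at 195 and 206 CPM against 70.8 and 227, and SLC7A11 at 242 and 268 against 52.3 and 302. Against LNCaP, no gene's androgen effect differed (6 at an unadjusted p below 0.05 beside 2050 of 17323 genes, 1 by DESeq2, 1.12% of all genes called). Without MDAPCa2a ACP stripped replicate 2 that count was 16, all higher in MDAPCa2a, and without replicate 1 it was 0.

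RWPE was compared between androgen medium and control medium on ACP. The androgen medium holds stripped serum per the treatment text, while the control medium is serum-free, so androgen and serum cannot be told apart here. Of the 40 genes 6 rose and 2 fell, where 19.1% of 14293 genes were called, 11% higher and 8.05% lower. The share of the 40 called was 20%, beside 19.1% of all genes. ASNS rose from 217 and 226 CPM to 535, 471 and 432 (log2 1.14, SE 0.18, adjusted p = 0.017), PSPH from 45.6 and 44.3 to 111, 86.2 and 74.9 (log2 1.03, SE 0.20, adjusted p = 0.017), and PSAT1 from 631 and 652 to 1330, 1221 and 897 (log2 0.86, SE 0.21, adjusted p = 0.023).

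SLC7A11, MTHFD2 and DDIT3 rose by 0.85, 0.78 and 0.64 on the log2 scale. SLC6A9 fell from 77.0 and 55.6 CPM to 32.8, 35.5 and 49.0 (log2 -0.74, SE 0.20, adjusted p = 0.0334), and SLC1A4 fell by 0.62. ATF4, at 474 and 433 against 488, 469 and 449 CPM, overlapped, as did TRIB3 and CHAC1. PHGDH, at 458 and 362 CPM against 284, 382 and 329, overlapped, and SLC7A5, at 6846 and 5050 against 3403, 3332 and 5240, overlapped as well. The count of 8 fell to 0 without either control library, 2 without androgen replicate 1 and 5 without replicate 2, and it was 12 without replicate 3. KRT5 and TP63, basal markers, fell in the same comparison, and summed basal markers ranged from 3398 to 11102 CPM over the androgen libraries. Among the other pathway genes, 3 of 14 stress kinases and eIF2 components and 2 of 14 cytosolic and 3 of 17 mitochondrial synthetases rose. So did 3 of the 12 listed nitrogen enzymes, where 11% of all genes were called higher. SLC7A8 led 4 transporters that fell, where 8.05% of all genes were called lower. These lists were not tested against those shares. Summed over 4 markers, blood genes were at 1.51 to 1.81 CPM in control medium and 0.125 to 0.587 with androgen.

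Between surfaces in stripped serum, few listed genes differed within a line. LNCaP had PHGDH, SLC7A1 and CBS lower on ACP and none higher, where 6.12% of all genes were called, 1.8% lower and 4.32% higher. PHGDH was at 607 and 505 CPM on plastic against 342 and 300 on ACP (log2 -0.75, SE 0.17, adjusted p = 0.0287). SLC7A1, the cationic amino acid carrier, was at 110 and 103 CPM against 68.1 and 68.8 (log2 -0.60, SE 0.13, adjusted p = 0.0216). CBS was at 328 and 265 against 212 and 176 (log2 -0.58, SE 0.15, adjusted p = 0.0437). Omitting replicate 1 of the plastic libraries, or either library from ACP, left none of the 3 called.

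ATF4, at 394 and 324 CPM on plastic and 362 and 323 on ACP, overlapped in that comparison. In VCaP none of the 40 passed (none at an unadjusted p below 0.05, none by DESeq2, 0% of all genes called). In MDAPCa2a none passed either (none at an unadjusted p below 0.05, none by DESeq2, 0.00734% of all genes called), and 1 did without ACP stripped replicate 2.

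In control medium the surface comparison sets ACP at day 4 against the plastic control libraries. LNCaP then had 15 genes lower on ACP and none higher, where 12.6% of all genes were called, 5.85% lower and 6.74% higher. SLC7A5 was at 44.9 and 50.7 CPM on plastic against 11.5 and 18.5 on ACP (log2 -1.57, SE 0.22, adjusted p = 0.00833). SLC6A9, TRIB3, PCK2, AARS and SESN2 followed, at log2 differences of -1.41, -1.04, -1.03, -1.03 and -1.01. The count was 0 without either plastic control library and 4 without ACP control replicate 1.

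RWPE had CEBPB, a C/EBP factor, higher on ACP at 413 and 348 CPM against 195 and 194 (log2 0.99, SE 0.18, adjusted p = 0.0175), where 4.16% of all genes were called, 2.83% higher and 1.33% lower. PPP1R15A was lower, at 158 and 120 against 323 and 312 CPM (log2 -1.17, SE 0.27, adjusted p = 0.0419), and so was PYCR1, a proline enzyme, at 83.5 and 63.8 against 122 and 142 (log2 -0.82, SE 0.19, adjusted p = 0.0406). All 3 calls were lost in each omission of a library. In VCaP none of the 40 passed by edgeR (4 at an unadjusted p below 0.05 beside 1123 of 15614 genes, none by DESeq2). Of all genes 0.0448% were called, 0.0256% higher and 0.0192% lower.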

How the data were processed

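The data are 1 table of read counts per gene, deposited by the authors. The submitters' processing notes name STAR, HTSeq and the build hg19, with no versions or settings. RNA was poly(A)-selected, per the labels' protocols. Strand use in counting is not given in the sources used here, so reads of overlapping or antisense genes cannot be separated.

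Counts were tested as deposited with edgeR 4.0.16 (R 4.3.3): TMM library sizes, low counts removed by filterByExpr (minimum 10), quasi-likelihood F test, Benjamini-Hochberg adjustment over all genes tested, threshold 0.05. Comparisons within a line used that line's libraries; comparisons between lines and differences of effects used all 34. SE is the log2 difference divided by the square root of F. Exon lengths came from GENCODE by symbol. The fitting code was tested on simulated data.

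The 40 genes, their roles and the 12 pathway and marker lists were chosen with earlier results of these data known. Any of the 40 may be named. ATF4, DDIT3, TRIB3, CHAC1, ASNS, PSAT1, PHGDH, SLC7A11 and SLC7A5 are described in every line, as are up to 6 called genes per comparison with the largest change, and others were named to complete a count of few. Of the pathway lists, those past the threshold were counted. Alternatives tried were DESeq2 1.42.0, RLE size factors, no count filter, the replicate number as a block, a fit of all lines and leaving out each library. Library totals ran from 15440141 to 44779246 reads, and most groups had 2 libraries. No column was left unmatched to a sample.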

Additional observations from a re-analysis of the deposited data

Results flagged for a closer look

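The androgen effect on ACP differed between VCaP and LNCaP for 5 of the 40 genes by a test of the difference itself, with edgeR over all 34 libraries. Of all 17323 genes 10.9% differed, and 12.5% of the 40, so the share of the list is near that of all genes. The count was 3 without either LNCaP stripped library on ACP. As VCaP minus LNCaP on the log2 scale, the difference was 3.04 for ATF3, 1.98 for EIF4EBP1, 1.11 for ATF5, -1.39 for SLC38A2 and -1.25 for CTH. The LNCaP effect on SLC38A2 rests largely on androgen replicate 1, at 701 CPM against 312 in replicate 2. No group had 4 or more libraries, so single libraries could not be tested as far from their group.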

How the results depend on the processing

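Among 75 single-gene log2 differences given above, none changed sign over 681 alternative values. Many of the 75 were named because they passed the threshold with large changes, so a stable sign was likely beforehand. Where no listed gene was called, as for androgen in MDAPCa2a, the median ran from -0.18 to 1.09. A call was lost in 125 of 328 values with a library left out and in 27 of 53 under the fit of all lines. The counts that follow are of the 40 genes called, and the cause of each shift was not tested. With the fit of all lines the count was 7 in place of 24 for LNCaP stripping on ACP, 2 in place of 5 for LNCaP with androgen, 2 in place of 8 for RWPE in androgen medium, 2 in place of 15 for LNCaP between surfaces in control medium and 0 in place of 3 in stripped serum. For stripping on plastic it was 1 in VCaP and 5 in MDAPCa2a. DESeq2 called 1 for VCaP stripping on ACP, 5 on plastic, 6 for MDAPCa2a stripping on plastic, 7 for LNCaP between surfaces in stripped serum and 6 for RWPE between surfaces. For differences of effects it called 1 for androgen, MDAPCa2a minus LNCaP, and 3 for stripping, VCaP minus LNCaP. Without the count filter these 7 counts were 1, 4, 24, 9, 5, 1 and 1, and that of LNCaP with androgen was 8.

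Leaving out 1 library gave 7 to 25 for LNCaP stripping on ACP, 0 to 7 for LNCaP with androgen, 2 to 7 for VCaP with androgen and 0 to 12 for RWPE in androgen medium. Between surfaces it gave 0 to 4 for LNCaP and 0 to 1 for MDAPCa2a in stripped serum, 0 to 16 for LNCaP and 0 in every case for RWPE in control medium. MDAPCa2a stripping on plastic gave 0 in every case. Between lines it gave 9 to 12 for MDAPCa2a against LNCaP on plastic and 15 to 21 for VCaP against LNCaP on ACP with androgen. The androgen difference ranged from 3 to 5 for VCaP minus LNCaP and from 0 to 16 for MDAPCa2a minus LNCaP.

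Replicate numbers did not pair the libraries in most pairs of groups. The correlation of same-numbered deviations ran from -0.51 to 0.61 over 25 pairs of groups and was over 0.1 in 8. It was 0.61 between stripped serum and androgen in MDAPCa2a on ACP. Between plastic and ACP in LNCaP in stripped serum it was 0.47. Whether these groups share an origin by replicate number was not tested. With the replicate block the count for RWPE between surfaces in control medium was 10 in place of 3, and for RWPE in androgen medium 12 in place of 8.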
